A study of Mus musculus with 285 samples.

Results

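The genes described here encode the kainate receptor subunits and their auxiliary proteins, namely *Grik1*, *Grik2*, *Grik3*, *Grik4*, *Grik5*, *Neto1* and *Neto2*. In the mouse genome (GRCm38.p6) they lie on 7 chromosomes: *Grik1* at chr16:87895901-88290863, *Grik2* at chr10:49093680-49790161, *Grik3* at chr4:125490259-125714173, *Grik4* at chr9:42518182-42945000, *Grik5* at chr7:25009849-25075694, *Neto1* at chr18:86394815-86506721 and *Neto2* at chr8:85636718-85700952. They were chosen by name, not by measured values, and are 7 of the 19962 genes of a whole-transcriptome probe panel. Their RNA was measured in neuron segments of 5 brain regions, CA3, the dentate gyrus (DG), CA1, the stratum oriens (SO) and the cortex, in 15 mice. *Grik1* did not pass the detection limit, and the other 6 genes were tested among 10020 genes.

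All mice were tumor-free C57BL/6J animals, 9 weeks old by the labels, and the study's methods describe them as female. The 5 groups held 3 mice each. FLASH 1x10Gy mice received a single dose of 10 Gy to the whole brain, and FLASH 3x10Gy mice received 3 fractions of 10 Gy at intervals of 48 h. FLASH delivers each dose in 1 pulse at an ultra-high dose rate (5.6e+06 Gy/s). CONV 1x10Gy and CONV 3x10Gy mice received the same doses at the conventional rate of 0.09 Gy/s, and CTRL mice were sham-irradiated. Brains were fixed 24 h after the last dose. Sections were stained for NeuN, GFAP and CD31, and the GeoMx instrument released probe tags from the NeuN-positive area of each region of interest. Each hippocampal subregion gave 1 neuron library per mouse and the cortex gave 2, at places chosen on the stained morphology markers. A letter after the group gives the mouse, which was the unit of the region and treatment tests. In the neuron and astrocyte comparison the unit was the pair of segments.

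Kainate receptors are glutamate-gated cation channels built from 4 subunits. GluK1 to GluK3, the products of *Grik1* to *Grik3*, bind kainate with lower affinity and can form channels on their own. GluK4 and GluK5, the products of *Grik4* and *Grik5*, bind it with high affinity and need a partner from the first set. Neto1 and Neto2 are transmembrane proteins with CUB domains that attach to the receptors and slow their gating. In the hippocampus these receptors are best known from the synapse between mossy fibers, the axons of DG granule cells, and CA3 pyramidal cells, where they carry a slow current and also regulate glutamate release.

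Neuron libraries that passed the limits on reads and signal numbered 87 of 90 and held 157915 to 2022070 counts (median 714453). A segment can also hold RNA of neighbouring cells. In such bulk samples, fewer cells of a type and less RNA per cell cannot be told apart. Levels are given in CPM, which are counts summed per mouse and region and divided by the TMM-scaled library total (TMM corrects for composition). Each gene has its own probe, so levels are compared between regions or groups and never between genes. Negative probes, which match no mouse RNA, set the background: their mean lay between 26.9 and 54.8 CPM. The mean negative count made up a median of 61.4% of the mean gene count in CA3 libraries, 45.8% in DG, 59.96% in CA1, 56.8% in SO and 56.6% in the cortex. A gene at background therefore has a lower CPM in DG than in CA3, and low values are read here beside the negative probes.

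The members differed widely in how often they exceeded the limit of quantification, a level set in each library above the negative probes by their geometric spread. *Grik5* was above it in 87 of 87 neuron libraries, *Grik2* in 77, *Neto1* in 55, *Neto2* in 46, *Grik3* in 42, *Grik4* in 25 and *Grik1* in 1. *Grik1* stood at a median of 1.12 times the geometric mean of the negative probes (0.472 to 2.08 over libraries), so its RNA was not detectable at this depth in any region. It is not described further outside the neuron and astrocyte comparison. *Grik4* was above the limit in 15 of 15 libraries in CA3, 6 of 15 in DG, 0 of 15 in CA1, 1 of 13 in SO and 3 of 29 in the cortex. The filter kept genes above the limit in 5% of all kept libraries, and *Grik4* passed it only through CA3, so its CA3 differences are a description and support no count of members. *Grik3* exceeded it in 13 of 15 DG and 26 of 29 cortical libraries, against 1 of 15 in CA3 and 0 of 15 in CA1.

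**Figure D1:**
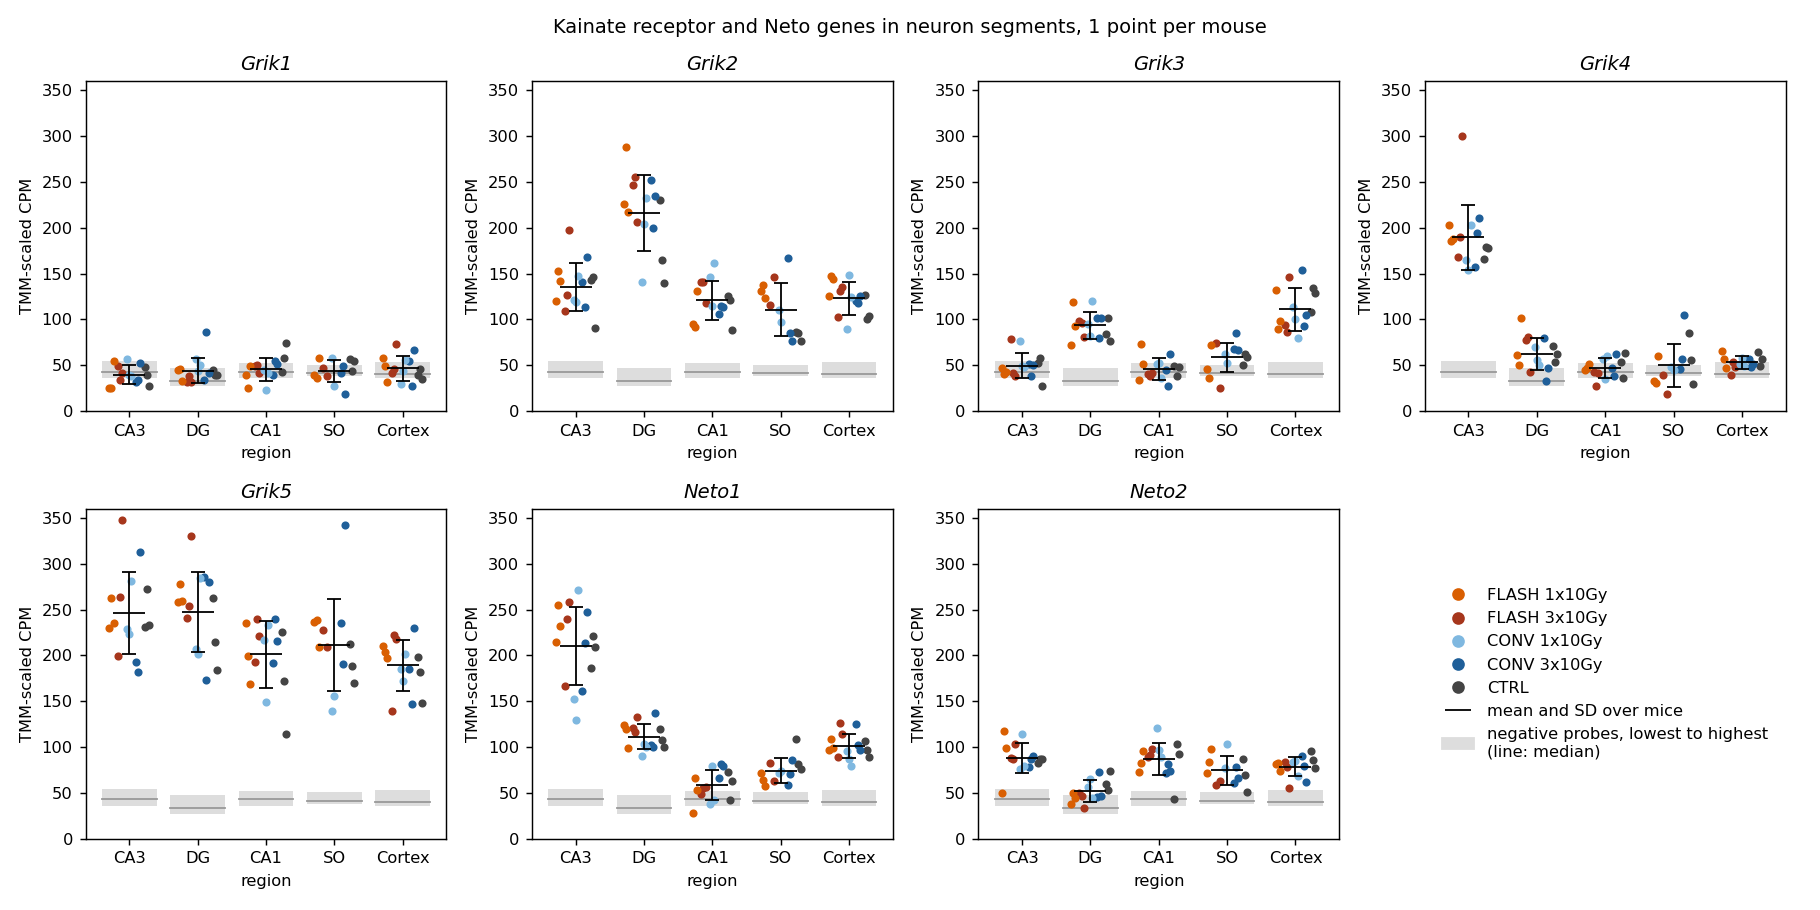
TMM-scaled CPM (vertical axes) of each gene by brain region (horizontal axes), with 1 point per mouse colored by treatment, black bars for the mean and SD over mice and grey bands for the negative probes. *Grik4* and *Neto1* peak in CA3, *Grik2* in DG and *Grik3* in the cortex and DG, whereas *Grik1* lies within or near the grey band in every region, apart from 1 DG mouse at 86.6 CPM.

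Neurons of CA3 had the highest *Grik4*. Its level there was 154 CPM in the lowest, 186 in the median and 300 in the highest of 15 mice. DG followed with 33.3, 61.5 and 102 CPM, and CA1 had 27.0, 47.1 and 63.0 CPM. No mouse of another region reached the lowest CA3 mouse: SO ranged up to 104 CPM over 13 mice and the cortex up to 66.0 CPM over 15. Fitted with the mouse as block, *Grik4* was higher in CA3 than in DG by 1.53 (SE 0.09) on the log2 scale, a 2.88-fold difference. It was higher in CA3 than in CA1 by 2.04 (SE 0.12), than in SO by 1.90 (SE 0.13) and than in the cortex by 1.80 (SE 0.09). Because the gene passed the filter through CA3, no p is printed for these differences. For other pairs the adjusted p are from the edgeR quasi-likelihood test, adjusted over all genes by Benjamini-Hochberg. All 15 mice (13 for SO) showed these directions. With no gene filter the difference between CA3 and DG was 1.58 (SE 0.10). In CA1, SO and the cortex the gene lay close to the negative probes, at medians of 1.05, 1.03 and 1.24 times their mean, so these folds understate the difference above background. After subtraction of the negative probe mean from every library the difference between CA3 and DG was 2.65 (SE 0.30). DG exceeded the cortex by a small margin, with 0.28 (SE 0.10) and adjusted p = 0.0212, a call that was lost without FLASH 1x10Gy mouse C (0.17) or FLASH 3x10Gy mouse A (0.19). DG minus SO was 0.37 (SE 0.15) with adjusted p = 0.0602. It passed in 7 of 24 alternative settings, with adjusted p down to 0.0096 without CTRL mouse A, and was 1.31 (adjusted p = 0.0434) with the negative probe mean subtracted.

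*Neto1* followed the same order at its upper end. CA3 had 129, 215 and 271 CPM in the lowest, median and highest mouse, and DG had 90.6, 107 and 138 CPM. The cortex resembled DG with 79.5, 97.2 and 126 CPM, SO had 57.4, 72.1 and 109 CPM, and CA1 had 28.02, 56.5 and 81.7 CPM. CA3 and CA1 did not overlap in any mouse, and neither did CA3 and SO, CA3 and the cortex, or DG and CA1. The log2 differences were 0.89 (SE 0.07) for CA3 minus DG, 1.83 (SE 0.09) for CA3 minus CA1, 1.44 (SE 0.10) for CA3 minus SO and 1.03 (SE 0.07) for CA3 minus cortex. The largest adjusted p among these was 1.26e-25. DG exceeded CA1 by 0.94 (SE 0.10) and SO by 0.55 (SE 0.10), whereas DG minus cortex, 0.15 (SE 0.07), did not pass the test (adjusted p = 0.0761). In CA1 the gene stood at a median of 1.297 times the negative probe mean and never passed the limit of quantification, while in DG it stood at 3.52 times.

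*Grik2*, which encodes the low-affinity subunit GluK2, had its highest level in DG. The DG values were 140, 225 and 288 CPM in the lowest, median and highest mouse, against 90.8, 141 and 197 CPM in CA3 and 88.9, 118 and 161 CPM in CA1. SO ranged between 76.0 and 167 CPM and the cortex between 89.8 and 149 CPM, so the ranges of all regions overlapped. Within mice the differences were large relative to their errors: CA3 minus DG was -0.68 (SE 0.07), DG minus CA1 was 0.85 (SE 0.08), DG minus SO was 0.94 (SE 0.09) and DG minus cortex was 0.81 (SE 0.07), with adjusted p of 1.21e-16 or less. Among the other regions the levels were close. CA3 minus SO, 0.26 (SE 0.10), passed the test with adjusted p = 0.0450, and this call was lost when any of 6 mice was left out, with differences between 0.20 and 0.26. The other differences among CA3, CA1, SO and the cortex did not pass the test.

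*Grik3*, the third low-affinity subunit gene, was a gene of the cortex and DG. Cortical levels were 79.5, 105 and 154 CPM and DG levels 72.6, 94.8 and 120 CPM in the lowest, median and highest mouse. CA3 had 27.6, 48.1 and 78.8 CPM, and CA1 had 27.2, 44.5 and 72.9 CPM. Every mouse of CA3 and of CA1 lay below every mouse of the cortex. CA3 minus cortex was -1.12 (SE 0.09), CA1 minus cortex -1.29 (SE 0.11), SO minus cortex -0.92 (SE 0.12), CA3 minus DG -0.89 (SE 0.10) and DG minus CA1 1.06 (SE 0.12). DG was lower than the cortex by a small amount, with -0.23 (SE 0.08) and adjusted p = 0.00904, and without FLASH 1x10Gy mouse A this was -0.18 with adjusted p = 0.0549. In CA3 and CA1 *Grik3* was at background, with medians of 1.06 and 0.97 times the negative probe mean, and no difference among CA3, CA1 and SO passed the test. The largest of these, CA1 minus SO, was -0.37 (SE 0.16, adjusted p = 0.828), with CA1 lower in 10 of 13 mice.

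*Grik5*, the high-affinity subunit gene present in every library, varied least over the regions. Its mean level was 246 ± 44.6 CPM in CA3 and 248 ± 43.5 CPM in DG (SD, n = 15 mice each), 201 ± 36.5 in CA1, 212 ± 50.2 in SO (n = 13) and 189 ± 27.9 in the cortex. CA3 and DG differed by -0.03 (SE 0.07, adjusted p = 0.744). With the negative probe mean subtracted this became 0.25 (SE 0.08, adjusted p = 0.00746). CA3 exceeded CA1 by 0.29 (SE 0.08) and the cortex by 0.36 (SE 0.07), and DG exceeded the same regions by 0.31 (SE 0.08) and 0.39 (SE 0.07). The DG excess over SO, 0.21 (SE 0.08, adjusted p = 0.0484), lost its call when any of 10 mice was left out, with differences between 0.18 and 0.22. The ranges over mice overlapped for every pair of regions, although CA3 and DG each exceeded the cortex in 15 of 15 mice.

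*Neto2* had the reverse of the *Grik2* pattern, with its lowest level in DG. DG mice had 33.7, 49.6 and 73.7 CPM in the lowest, median and highest mouse, against 49.96, 87.2 and 118 CPM in CA3 and 43.1, 89.7 and 121 CPM in CA1. CA3 minus DG was 0.79 (SE 0.09), DG minus CA1 -0.74 (SE 0.10), DG minus SO -0.54 (SE 0.11) and DG minus cortex -0.65 (SE 0.08), with adjusted p of 3.98e-05 or less. DG libraries also had the lowest background. Relative to its own negative probes *Neto2* stood at a median of 1.49 in DG and 2.03 in CA3, and with the negative probe mean subtracted CA3 minus DG was 1.69 (SE 0.24). No difference among the 4 regions other than DG passed the test, the largest being CA3 minus SO with 0.25 (SE 0.10, adjusted p = 0.0739).

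**Figure D2:**
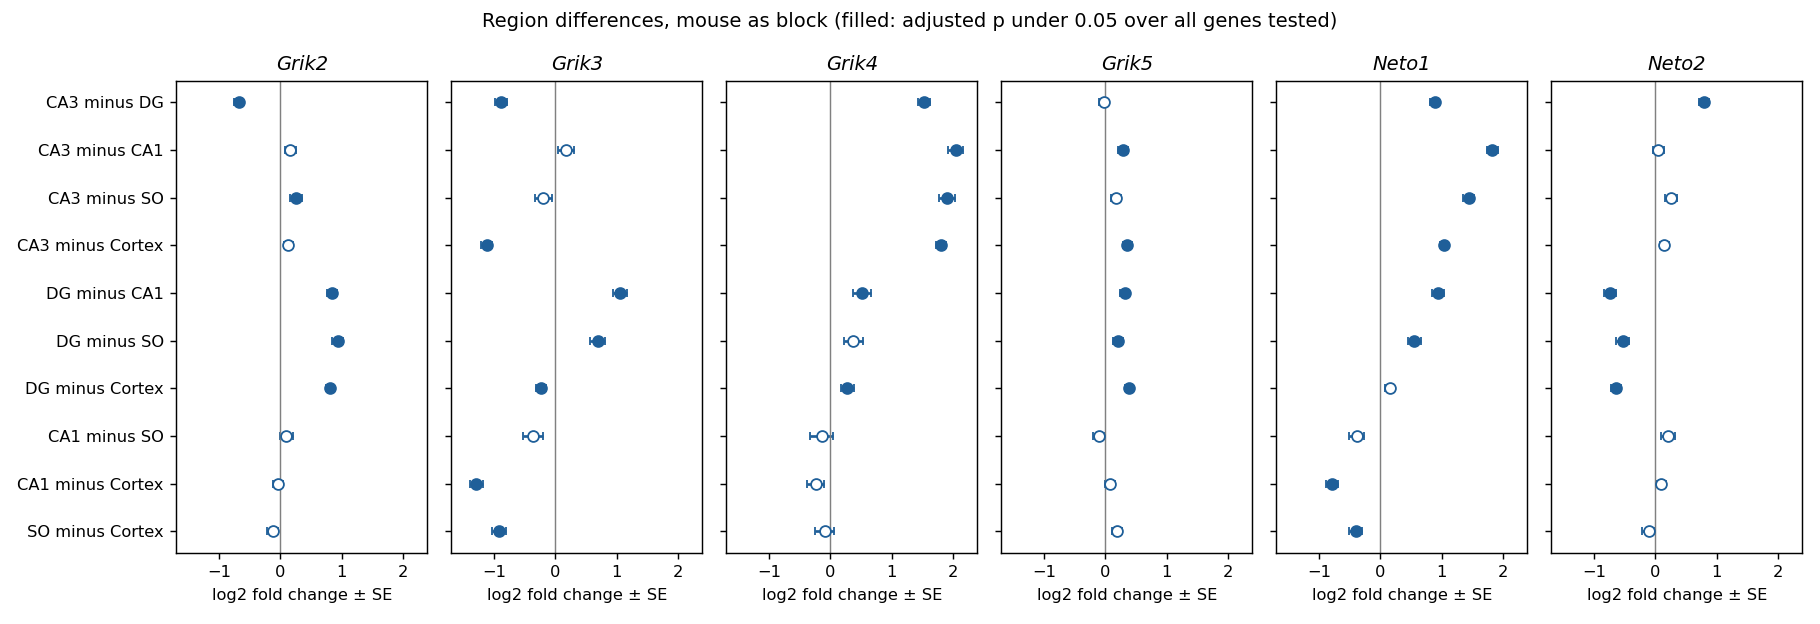
Log2 fold change and SE (horizontal axes) for each of 10 pairs of regions (vertical axis) in the 6 genes tested, with the mouse as block, where filled circles passed adjusted p = 0.05. *Grik4* and *Neto1* lie to the right in all pairs that start with CA3, *Neto2* is the mirror image of *Grik2* in the pairs that involve DG, and no circle is filled for CA1 minus SO.

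Counted together, 35 of 60 tests of a member between 2 regions passed, where 26.8% of all tests of a gene between 2 regions did. Of these calls 4 were those of *Grik4* in CA3, through which this gene had passed the filter. The counts below that involve CA3 include these calls, so they are given as a description. Between CA3 and DG 5 of the 6 members passed, where 51.8% of genes did, and between DG and CA1 6 of 6 passed, where 33.2% did. CA3 differed from CA1 in 3 of 6 members (23.1% of genes), from SO in 3 (19.4%) and from the cortex in 4 (29%). DG differed from SO in 5 (25.3%) and from the cortex in 5 (47.3%). CA1 and SO each differed from the cortex in 2, where 21.1% and 18.3% of genes did. Regional differences were thus common in these libraries, and the members' own values, not their number, carry the description. Between CA1 and SO 0 of 6 passed (2 at unadjusted p under 0.05, and 0 with DESeq2), where 0.00998% of genes did, which is 1 gene. Marker genes also placed CA1 and SO close together. The summed CPM of 3 CA1 marker genes had a median of 639 in CA1 and 595 in SO, against 157 in CA3. The sum of 7 inhibitory neuron markers was 589 in SO and 421 in CA1. The sum of 3 CA3 markers was 445 in CA3 and 173 in DG, and that of 3 granule cell markers 413 in DG and 109 in CA3. General neuronal markers differed too: 5 of them summed to a median of 3179 CPM in CA3, with 1402 to 4484 over mice, against 1338 in DG, 1318 in CA1, 1305 in SO and 2481 in the cortex. Among markers of other cells, 5 oligodendrocyte genes summed to a median of 815 CPM in CA3, with 655 to 1173 over mice, and to 450 in DG, with 381 to 633. The part of the neuronal marker level and of oligodendrocyte RNA in the differences between CA3 and the other regions was not tested.

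The CA3 level of *Grik4* and *Neto1* was present in unirradiated mice. In CTRL mice A, B and C *Grik4* had 166, 179 and 178 CPM in CA3 and 70.7, 53.7 and 62.3 CPM in DG. A fit of the 3 CTRL mice alone gave CA3 minus DG differences of 1.48 (SE 0.16) for *Grik4* and 0.89 (SE 0.15, adjusted p = 2.58e-07) for *Neto1*. The same fit gave -0.44 (SE 0.15) for *Grik2* and -0.76 (SE 0.18) for *Grik3*, both called, and 0.46 (SE 0.18, adjusted p = 0.0628) for *Neto2*.

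*Grik4* and *Neto1* were also the pair of members with the most similar profile across regions. Over the 73 mouse and region sums the Pearson correlation of their log2 CPM was 0.79, and after removal of each region's mean it was 0.19. Within regions the highest value was that of *Grik2* and *Grik5*, at 0.44, and *Grik3* and *Grik4* had 0.30. These sums share mice, and the first value follows the regional pattern, so it is given as a description. Among all genes tested, those most like *Grik4* were *Ccnd2* (r = 0.82), *Chgb* (r = 0.82) and *Nnat* (r = 0.80), and those most like *Neto1* were *Ccnd2* (r = 0.84), *Cpne4* (r = 0.82), one of the CA3 markers, and *Ak5* (r = 0.80). *Ccnd2* encodes a cyclin, *Chgb* a granin of dense-core vesicles and *Ak5* an adenylate kinase. Closest to *Grik2* were *Slc8a2* (r = 0.79), a sodium-calcium exchanger gene, *Rpl3* (r = 0.77) and *Anxa11* (r = 0.77). Closest to *Grik3* were *Cnih3* (r = 0.78), which encodes an auxiliary protein of AMPA receptors, *Stk32c* (r = 0.74) and *Negr1* (r = 0.74). For *Grik5* they were *Epn1* (r = 0.77), *Phyhip* (r = 0.73) and *Chst1* (r = 0.72), and for *Neto2* they were *Nrxn3* (r = 0.66), a neurexin gene, *Plxna1* (r = 0.65) and *Pde1a* (r = 0.64).

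None of the other ionotropic glutamate receptor genes was called higher in CA3 than in DG, CA1 or SO. Of 13 AMPA, NMDA and delta receptor genes 7 were tested. Between CA3 and CA1 0 were higher and 5 lower in CA3, with a median of -0.29 over the list and -0.02 over all genes, where 23.1% of genes were called. The strongest was *Grin2a*, an NMDA receptor subunit gene, at -1.01 (SE 0.08). Between CA3 and the cortex 3 were higher, led by the AMPA receptor gene *Gria1* at 1.51 (SE 0.09), and 1 was lower, where 29% of genes were called. Of 22 partners and regulators of kainate receptors 21 were tested. Between CA3 and DG 6 were called higher and 9 lower in CA3, where 51.8% of genes were called. Their median was -0.12 against 0.03 over all genes. *C1ql2* and *C1ql3* encode secreted proteins of mossy fibers that bind kainate receptors in CA3. Both were lower in CA3 than in DG, with differences of -2.60 (SE 0.09) and -2.81 (SE 0.14). *Nrxn3*, which encodes the presynaptic partner of these proteins, was higher in CA3 than in DG by 1.10 (SE 0.08), and *Gnao1*, a G protein gene, by 1.297 (SE 0.08). The lists were described by their counts and received no test of their own.

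Treatments were compared between groups of 3 mice and regions within mice, so their numbers of calls are not set against each other. Over the 5 regions and the hippocampal sum, which holds the same libraries again, 4 of 216 tests of a member between 2 groups passed. This was close to the share of all such tests that passed, 1.77%. In CA3, CA1, SO and the cortex 0 of 36 tests passed in each with edgeR, DESeq2 or limma, while 1, 2, 5 and 0 had an unadjusted p under 0.05. With 1.77% of the tests of all genes passing over the regions and the sum, these zeros are not read as a trait of the members. The log2 differences lay between -0.62 and 0.60 in CA3, with standard errors from 0.16 to 0.42, and between -0.35 and 0.31 in the cortex, with standard errors from 0.16 to 0.27. In SO, where FLASH 3x10Gy mouse B and CONV 1x10Gy mouse C had no library left and their groups kept 2 mice each, they reached from -1.32 to 0.84 with standard errors up to 0.72. Differences of such size could not be told from the spread between 3 mice. The smallest adjusted p in CA3 belonged to *Neto1* for FLASH 1x10Gy against CONV 1x10Gy, at 0.60 (SE 0.23, adjusted p = 0.0788), in a comparison where 8.63% of genes were called. Its CA3 level was 215, 255 and 232 CPM in FLASH 1x10Gy mice A, B and C, against 153, 129 and 271 CPM in CONV 1x10Gy mice A, B and C. The groups overlapped through CONV 1x10Gy mouse C, which lay on another slide than the other 5. *Grik4* in CA3 was 203, 186 and 188 CPM in FLASH 1x10Gy mice and 166, 179 and 178 CPM in CTRL mice, a difference of 0.11 (SE 0.27, adjusted p = 0.884).

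**Figure D3:**
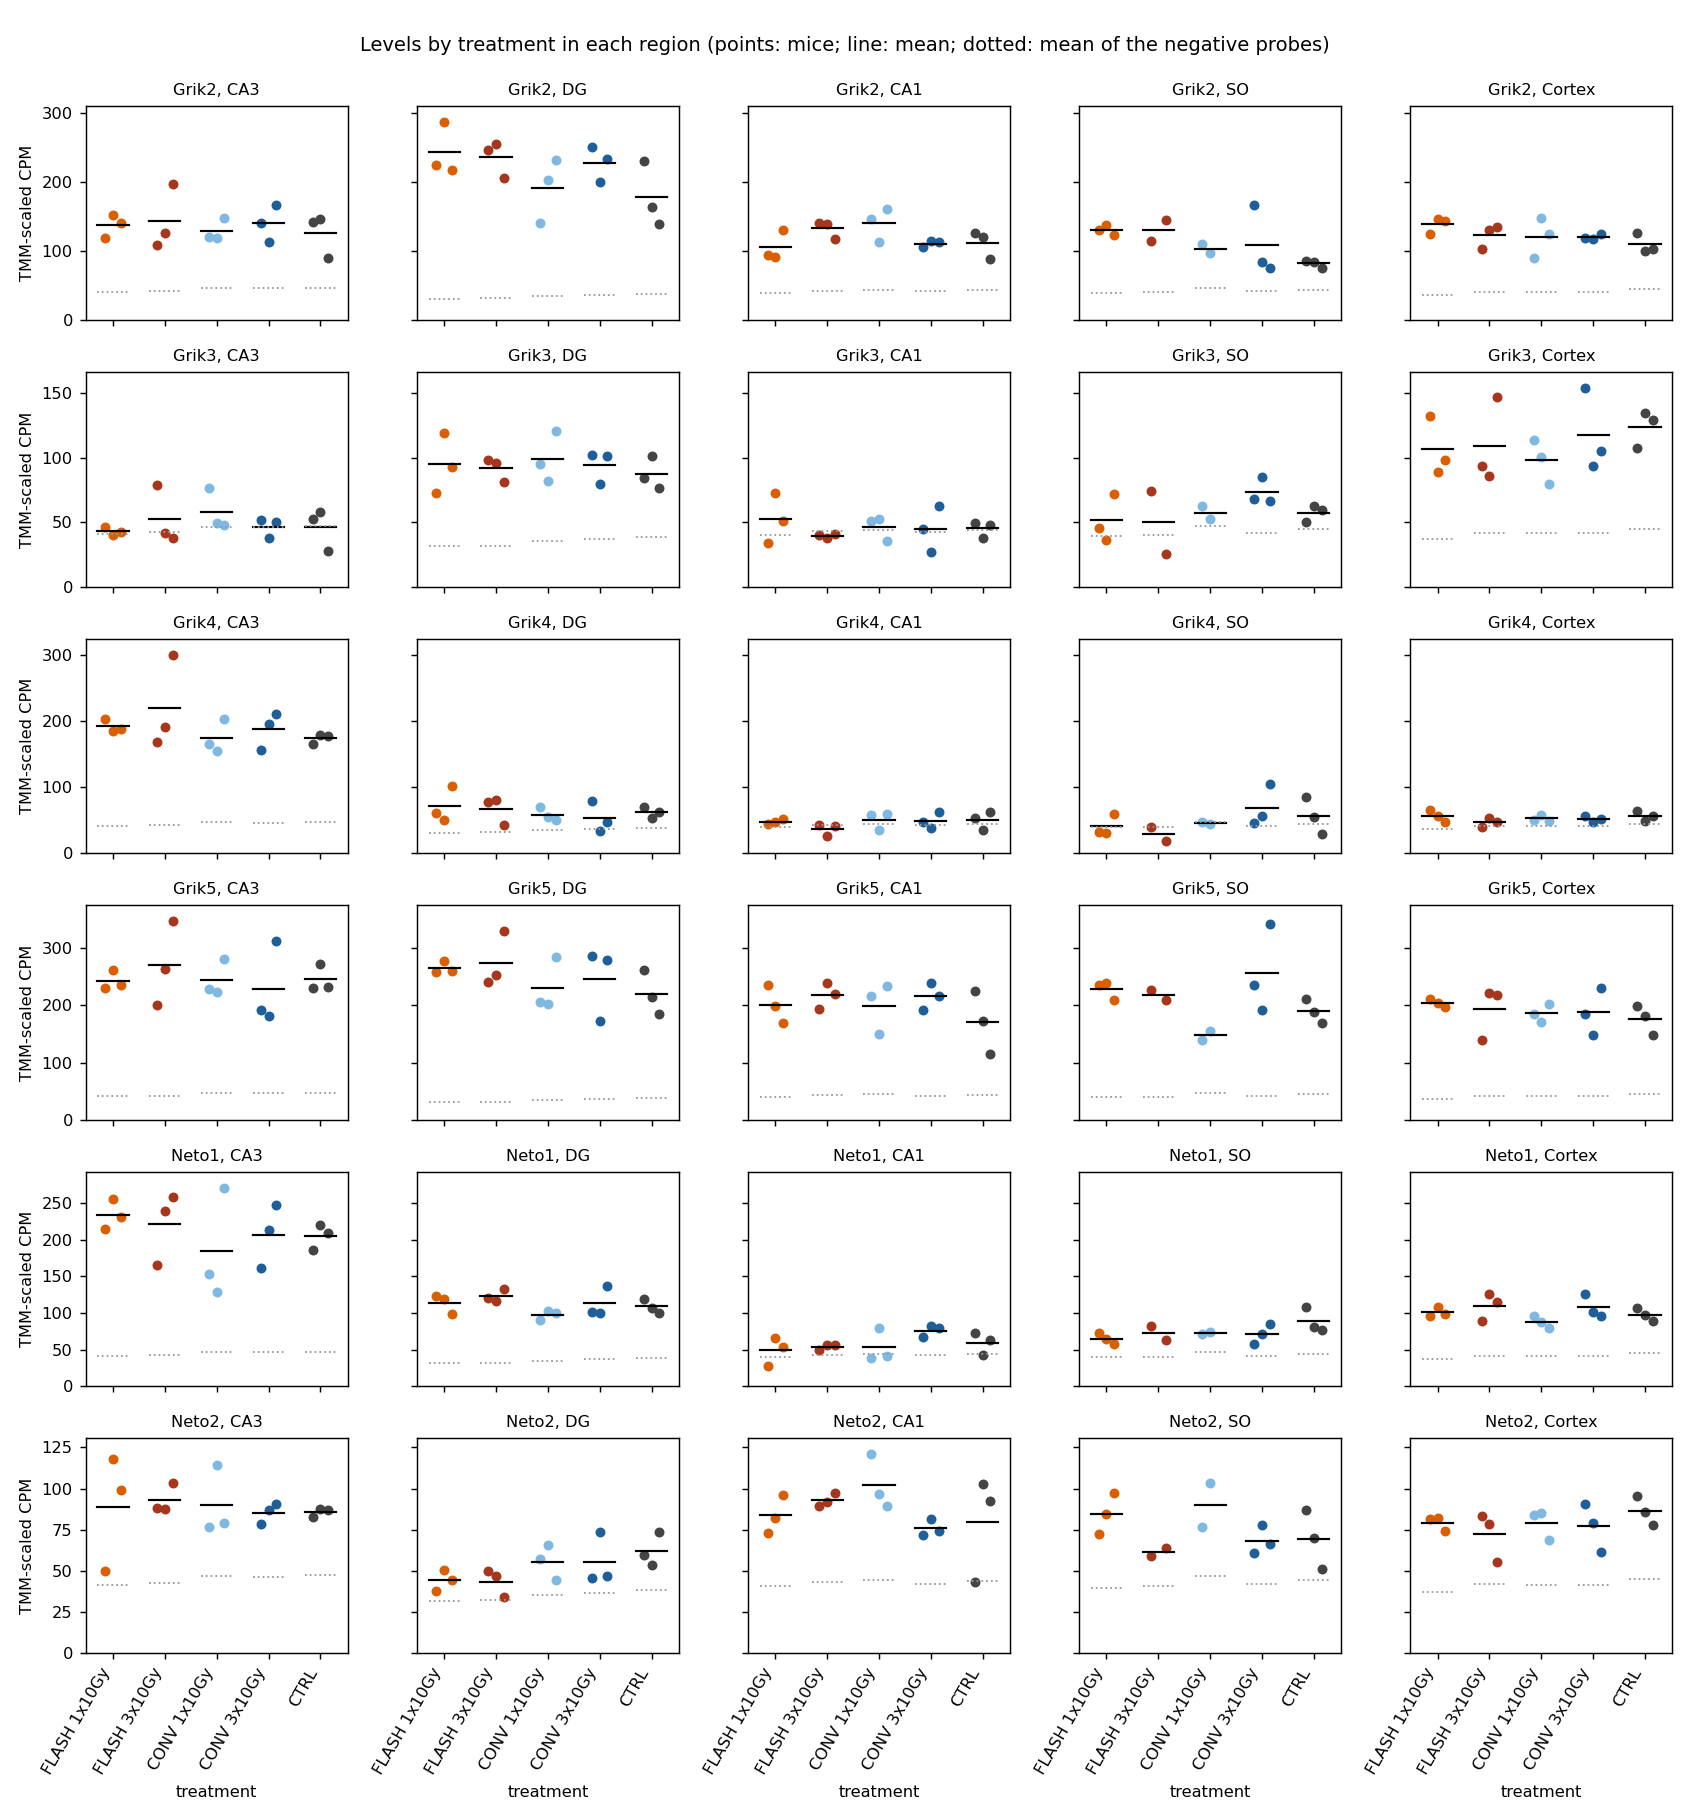
TMM-scaled CPM (vertical axes) of the 6 tested genes (rows) in the 5 regions (columns) by treatment, with 1 point per mouse, a line for the group mean and a dotted line for the mean of the negative probes. Within a region the groups overlap in most panels, and in the DG panel of *Neto2* the FLASH 1x10Gy and the FLASH 3x10Gy mice lie below the CTRL mice.

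In DG, *Neto2* was lower in FLASH 1x10Gy than in CTRL. Its level was 37.6, 50.3 and 44.5 CPM in FLASH 1x10Gy mice A, B and C, against 59.3, 53.7 and 73.7 CPM in CTRL mice A, B and C, and the groups did not overlap. *Neto2* in FLASH 3x10Gy mice, at 33.7 to 49.6 CPM, also lay below every CTRL mouse. Their difference from CTRL was not called, with member differences from -0.31 to 0.28. The difference between FLASH 1x10Gy and CTRL was -0.89 (SE 0.27, adjusted p = 0.0355). It was the only call among 6 members in this comparison, where 5.65% of genes were called. The negative probes themselves averaged 34.7 CPM over all DG mice, so the values of both groups were close to background. They too were lower in FLASH 1x10Gy, with a mean of 31.4 CPM against 38.4 CPM in CTRL. The background share of DG was 39.0% to 48.4% in FLASH 1x10Gy mice and 43.6% to 62.6% in CTRL mice. The sum of 5 neuronal markers was 1325 to 1458 CPM in FLASH 1x10Gy mice and 957 to 1338 CPM in CTRL mice, and that of 6 astrocyte markers was 373 to 395 CPM in FLASH 1x10Gy mice and 309 to 353 CPM in CTRL mice. Their part in the *Neto2* difference was not tested. The only slide with both groups held FLASH 1x10Gy mouse A and CTRL mouse C, at 37.6 and 73.7 CPM. The difference was -0.53 without the slide term (adjusted p = 0.416) and -0.55 without CTRL mouse C (adjusted p = 0.777), and the call was also lost without either of FLASH 1x10Gy mice A and B or of CONV 1x10Gy mice B and C. *Grik2*, the subunit gene highest in DG, had 225, 288 and 218 CPM in FLASH 1x10Gy mice there and 230, 165 and 140 CPM in CTRL mice. Its difference of 0.64 (SE 0.21) had adjusted p = 0.0518 and passed when any of 5 mice was left out (CTRL mouse A, CONV 3x10Gy mice B and C, FLASH 3x10Gy mice A and B).

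The remaining 3 calls came from counts summed over CA3, DG, CA1 and SO in each mouse, in the comparison of FLASH 1x10Gy with CONV 1x10Gy. The sums of CONV 1x10Gy mouse C and FLASH 3x10Gy mouse B held no SO library. *Grik4* had 97.3, 93.2 and 113 CPM in FLASH 1x10Gy mice A, B and C, against 84.5, 58.7 and 105 CPM in CONV 1x10Gy mice A, B and C. The groups overlapped, and the difference with slide in the fit was 0.58 (SE 0.15, adjusted p = 0.00525). *Neto1* had 136, 150 and 126 CPM in FLASH 1x10Gy mice, against 92.6, 93.6 and 147 CPM in CONV 1x10Gy mice, with a difference of 0.56 (SE 0.13, adjusted p = 0.00385). *Grik5* had 244, 253 and 223 CPM against 198, 182 and 267 CPM, with 0.39 (SE 0.14, adjusted p = 0.0467). The *Grik5* call was lost in 9 of 15 fits with 1 mouse left out and in 8 of 11 processing settings. Without the slide term the differences were 0.35 (adjusted p = 0.611) for *Grik4*, 0.34 (adjusted p = 0.612) for *Neto1* and 0.16 (adjusted p = 0.762) for *Grik5*, and 0 genes of all tested were called. In each of the 3 genes CONV 1x10Gy mice A and B were the lowest of the 6 mice and CONV 1x10Gy mouse C lay above at least 2 of the FLASH 1x10Gy mice. Thus 3 of 6 members were called, where 22.3% of genes were. Against CTRL, with *Grik4* at 109, 97.7 and 76.5 CPM in CTRL mice A, B and C, FLASH 1x10Gy differed by 0.44 (SE 0.19, adjusted p = 0.105; 0 of 6 members and 11.8% of genes called) and CONV 1x10Gy by -0.14 (SE 0.17, adjusted p = 0.999). Any difference among the 5 groups passed for *Grik4* (adjusted p = 0.0466) and *Neto1* (adjusted p = 0.0455), 2 of 6 members, where 11.5% of genes passed.

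The hippocampal sums did not hold the subregions in equal shares. CA3 gave 28.5%, 34.3% and 33.7% of the hippocampal counts of FLASH 1x10Gy mice A, B and C, against 22.8%, 9.77% and 36.3% in CONV 1x10Gy mice A, B and C. The mouse with the smallest CA3 share, CONV 1x10Gy mouse B, also had the lowest *Grik4*. The lowest *Neto1* was in CONV 1x10Gy mouse A (92.6 CPM) and the lowest *Grik5* in CTRL mouse C (178 CPM). The part of the CA3 share in the differences was not tested. Without CONV 1x10Gy mouse B the difference was 0.31 (SE 0.22, adjusted p = 0.528) for *Grik4*, 0.56 (SE 0.21, adjusted p = 0.229) for *Neto1* and 0.40 (SE 0.22, adjusted p = 0.415) for *Grik5*. With the available subregions of each mouse weighted equally (CONV 1x10Gy mouse C without SO), an alternative chosen after the data were seen, it was 0.19 (SE 0.14, adjusted p = 0.356) for *Grik4*, 0.27 (SE 0.13, adjusted p = 0.153) for *Neto1* and 0.35 (SE 0.14, adjusted p = 0.0744) for *Grik5*. Equal weights of CA1, CA3 and DG alone, which every one of these mice had, gave 0.23 (SE 0.14, adjusted p = 0.232), 0.35 (SE 0.14, adjusted p = 0.0593) and 0.26 (SE 0.15, adjusted p = 0.207) for *Grik4*, *Neto1* and *Grik5*. Within single subregions none of the 3 genes was called in this comparison: *Grik4* differed by 0.33 (SE 0.22) in CA3, 0.12 (SE 0.21) in DG, 0.15 (SE 0.38) in CA1 and -0.11 (SE 0.38) in SO. The background share moved too, at 49.96% to 52.8% in FLASH 1x10Gy sums and 43.9% to 62.7% in CONV 1x10Gy sums, and with this share as covariate the differences were 0.64 (SE 0.21, adjusted p = 0.338), 0.42 (SE 0.18, adjusted p = 0.481) and 0.19 (SE 0.18, adjusted p = 0.812) for *Grik4*, *Neto1* and *Grik5*. FLASH 3x10Gy and CONV 3x10Gy gave no member call in the sums, with member differences between -0.12 and 0.18. Few genes of any kind were called there: 0% for FLASH 3x10Gy against CONV 3x10Gy, 0.00998% for FLASH 3x10Gy against CTRL and 0% for CONV 3x10Gy against CTRL.

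**Figure D4:**
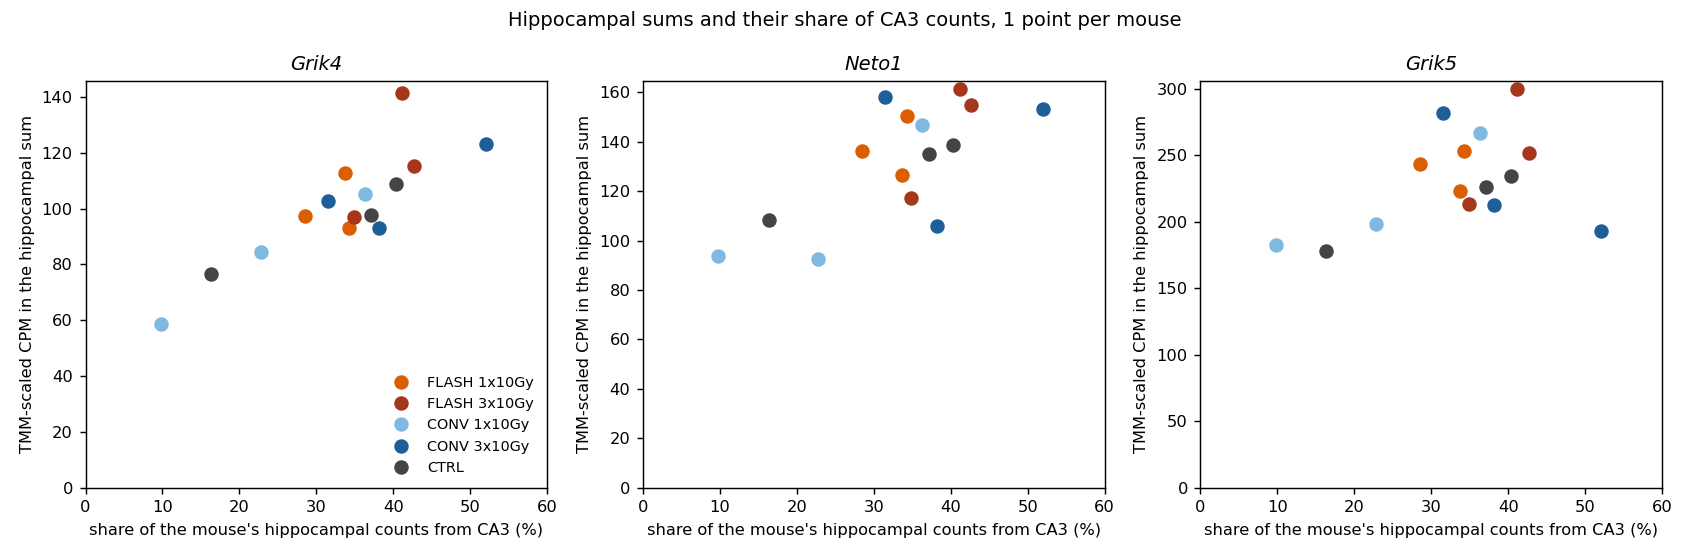
TMM-scaled CPM of *Grik4*, *Neto1* and *Grik5* in the hippocampal sum (vertical axes) against the percent of that sum that came from CA3 (horizontal axes), with 1 point per mouse colored by treatment. The mice with the smallest CA3 shares, CONV 1x10Gy mouse B at 9.77% and CTRL mouse C at 16.3%, also have the lowest *Grik4*.

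Whether the regional differences themselves changed with treatment was tested with the 16 terms of region by treatment. None of the 6 members passed in edgeR (0 at unadjusted p under 0.05, adjusted p = 1.00 for each), where 0.0499% of genes passed. Counts were also simulated for the same units, without mouse, slide or region effects and with changes only in genes above a minimum expected count. In them 73.0% of genes with a 2-fold change in CA3 of 1 group were recovered and 7% of those with a 1.5-fold change. These rates hold for the simulated counts and do not measure what could have been seen in the real data.

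The neuron segments were last set against the GFAP-positive astrocyte segments of the same mouse and hippocampal subregion, in 29 pairs from 10 mice. Pairs of the same mouse entered as separate blocks, so the adjusted p of this comparison do not measure the spread between mice. Of 60 astrocyte libraries 30 passed the limits. The paired astrocyte segments had a median of 438662 counts, against 1094555 in neuron segments. *Grik5* was higher in neurons in 29 of 29 pairs, with a median of 237 CPM (152 to 297) in neuron segments and 92.2 CPM (58.4 to 131) in astrocyte segments and a log2 difference of 1.36 (SE 0.07, adjusted p = 4.43e-29). *Grik2* was higher in 28 of 29 pairs, with 150 CPM (88.1 to 299) in neuron and 90.2 CPM (39.9 to 158) in astrocyte segments, by 0.94 (SE 0.07, adjusted p = 5.75e-19). The *Grik5* ranges of the 2 segment types did not overlap, whereas those of *Grik2* did. *Grik4* differed by 0.73 (SE 0.17) and *Neto1* by 0.69 (SE 0.13), with neurons higher in 19 and 23 pairs. Both varied by subregion on the log2(CPM + 1) scale. The median *Grik4* difference was 1.65 in CA3, where neurons were higher in 10 of 10 pairs, 0.28 in DG (5 of 9), -0.55 in CA1 (2 of 6) and 0.030 in SO (2 of 4). That of *Neto1* was 1.15 in CA3 (10 of 10), 0.53 in DG (9 of 9), -0.19 in CA1 (1 of 6) and 0.047 in SO (3 of 4). *Grik4* exceeded the limit of quantification only in neuron libraries, 25 of them, which were 11.1% of all kept libraries. *Neto1* exceeded it in 55 neuron libraries, and in 28.9% of all 225 kept libraries. Both genes thus passed the filter only or mainly through neuron libraries, so no p is printed for them and their comparison is a description. In CA1 neurons *Grik4* and *Neto1* each exceeded the limit in 0 of 15 libraries. Negative differences there are therefore not read as astrocyte expression. *Grik3* differed by 0.17 (SE 0.08, adjusted p = 0.0672) over all pairs, with neurons higher in 9 of 9 pairs in DG and 1 of 6 in CA1. It passed in 2 of 6 alternative settings, at 2.06 (adjusted p = 0.00118) with the negative probe mean subtracted and 0.33 (adjusted p = 0.000298) with no gene filter. *Neto2* differed by -0.06 (SE 0.08, adjusted p = 0.548), with neurons higher in 0 of 9 pairs in DG and 8 of 10 in CA3. Whether these differences varied between subregions was not tested. Of the 6 members 4 were called, where 72.4% of genes were. The calls of *Grik4* and *Neto1* are among the 4, so this count too is a description. *Grik1* was 42.1 CPM in neuron and 46.4 CPM in astrocyte segments at the median, and neurons were higher in 10 of 29 pairs. All 7 tested AMPA, NMDA and delta receptor genes were higher in neurons, with a median difference of 2.30.

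**Figure D5:**
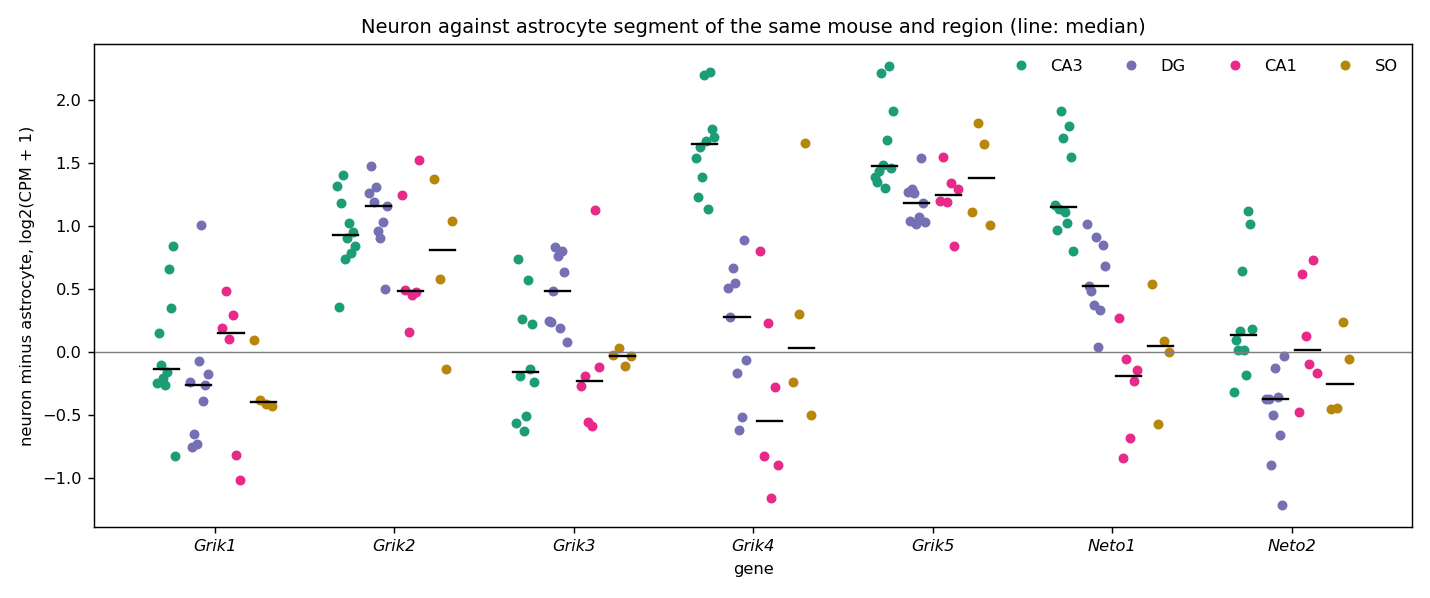
Neuron minus astrocyte difference in log2(CPM + 1) (vertical axis) for each gene (horizontal axis), with 1 point per pair of segments from the same mouse and region, colored by region, and a line for the median of each region. All *Grik5* points and 28 of 29 *Grik2* points lie above 0, *Grik4* and *Neto1* points spread widely, and *Grik1*, *Grik3* and *Neto2* points lie on both sides of 0.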

How the data were processed

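Counts per probe were deposited by the authors as whole numbers, without scaling, from their GeoMx NGS pipeline 2.0.0, which counts each molecular identifier once. The panel held 209 negative probes. A library was kept at 1000 raw reads or more, trimming and stitching rates of 80%, an alignment rate of 75%, sequencing saturation of 50%, a geometric mean of the negatives of at least 1 count, and detection of 5% of the panel, which kept 225 of 285. The limit of quantification was the negatives' geometric mean multiplied by their geometric SD to the power 2, with a minimum of 2 counts and zeros set to 0.5. The study's limits on nuclei and area and its probe outlier test were not applied. Genes above the limit in 5% of kept libraries were tested, 10020 in all.

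Counts were summed per mouse and region and fitted with edgeR 4.0.16 in R 4.3.3 (quasi-likelihood, robust, two-sided, TMM), and a call was a Benjamini-Hochberg adjusted p < 0.05 over all genes. Regions were fitted with the mouse as block and treatments with slide as factor, all groups in 1 fit. The block comes from the labels: after removal of region means, 115 of 142 region pairs of the same mouse correlated above 0.1 (median 0.21), against a median of -0.02 for different mice. The study fitted a mixed model to single libraries instead. Alternatives used limma 3.58.1 and DESeq2 1.42.0, other scalings and filters, background subtraction, and each mouse left out. The fits were tested on simulated counts without mouse, slide or region effects. The text names all 7 genes, the 3 genes most correlated with each, and the most changed called genes of the 2 lists. *C1ql2* and *Nrxn3* follow from other comparisons of that rule or were chosen after their values were seen. The genes, lists and tests were chosen with earlier results of these data known. Intervals of the region and treatment fits cover the spread between mice only, and with 3 mice per group the precision is low.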

Additional observations from a re-analysis of the deposited data

Results flagged for a closer look

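In the neuron and astrocyte pairs of each hippocampal subregion, 28 groups of 4 to 10 pairs were checked for a pair far from the others by Dixon's ratio, and 3 stood apart, where chance gives about 1 in 20. In DG the *Grik1* difference was 1.01 on the log2(CPM + 1) scale in CONV 3x10Gy mouse B, the next highest pair being at -0.07. In SO it was 0.094 in FLASH 3x10Gy mouse A, with the next pair at -0.38. In CA1 the *Grik3* difference was 1.12 in FLASH 1x10Gy mouse B, the next pair being at -0.12. *Grik1* and, in CA1, *Grik3* were near the negative probes, and no result above rests on these 3 pairs alone.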

How the results depend on the processing

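Of the 35 called region differences, 862 alternative values were computed. Of these 824 kept call and direction and 0 reversed, and 22 of the 35 kept their call in every alternative run. The *Grik4* differences of CA3, through which this gene passed the filter, are among the 35 and kept their call in 24 of 24 settings each. These counts are therefore a description. The number of calls was 33 to 36 with 1 mouse left out, 34 with DESeq2 and 22 under the strict gene filter, where *Grik3* and *Grik4* are not tested. Without the mouse as block it was 34. The neuron and astrocyte comparison without the block kept 4 calls, those of *Grik4* and *Neto1* among them, which is a description. With CTRL mice alone 24 region differences passed. Differences that were not called changed sign in some settings. *Grik5* CA3 minus DG was 0.14 in CTRL mice, 0.25 with negative probes subtracted, 0.028 with no gene filter, and -0.060 to 0.012 with 1 mouse left out (0.0085 without CONV 3x10Gy mouse A, 0.012 without FLASH 1x10Gy mouse C). In CTRL mice alone *Neto2* CA3 minus cortex was -0.022, *Grik2* CA1 minus cortex 0.036, *Grik5* CA1 minus cortex -0.054, *Neto2* CA1 minus cortex -0.11 and *Grik4* SO minus cortex 0.11. Neuron minus astrocyte was -0.020 for *Grik3* with all libraries, and for *Neto2* 0.75 with negative probes subtracted and 0.10 with no gene filter.

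Treatment calls were less stable. In DG the count of 1 became 0 without the slide term, with slide as a random block, with plate in its place, with DESeq2, with the background share as covariate, with negative probes subtracted and with no gene filter, became 2 under the strict filter, and was 0 to 4 with 1 mouse left out (4 without FLASH 3x10Gy mouse B). For FLASH 1x10Gy minus CTRL in DG 0 genes of all tested were called in the first 3 of these, with the background share and without CTRL mouse C, against 112 with DESeq2, 43 with negative probes subtracted, 318 with no gene filter and 538 under the strict filter. In the hippocampal sums the count of 3 became 0 without the slide term, with slide as a random block, with plate in its place, with the background share as covariate and with CA1, CA3 and DG weighted equally. It became 1 with all subregions weighted equally (*Grik2*, FLASH 1x10Gy minus CTRL, 0.56, adjusted p = 0.0337), and was 0 to 5 with 1 mouse left out (0 without CONV 1x10Gy mouse B, 5 without CONV 3x10Gy mouse C or CTRL mouse A). For FLASH 1x10Gy minus CONV 1x10Gy 0 genes of all tested were called without the slide term, with the random block, with plate and with the background share, and 2 without CONV 1x10Gy mouse B. Both weightings were chosen after the data were seen. In CA3 the count of 0 became 1 with no gene filter (*Neto1*, FLASH 1x10Gy minus CONV 1x10Gy, 0.74, adjusted p = 0.0493). The causes were not tested. In SO the fits with plate and without CTRL mouse C could not be fitted. In simulated counts without mouse or slide effects 15% of 1.5-fold changes were recovered between FLASH 1x10Gy and CTRL in DG. This does not measure the recovery in the real data.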
